A study of Mus musculus with 2 samples.

Results

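Glycolysis and hypoxia-responsive genes were read in CD4 T cells of Menin WT and Menin KO mice. Menin is the nuclear protein encoded by Men1 that works with MLL histone methyltransferases. The group was a list of 38 genes: 22 transporters, enzymes and regulators of glycolysis, and 16 genes of oxygen sensing and other hypoxia targets. A probe belonged to a member when its RefSeq transcript accession was one of that gene's. Of the 38 genes, 37 had a probe (of 18430 genes with a named probe on the array), and Vhl, the ubiquitin ligase subunit that recognises hydroxylated HIF alpha chains, had none. Ero1l was matched under its current symbol, Ero1a.

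There was 1 one-colour array of Menin WT cells and 1 of Menin KO cells, both from female C57BL/6J mice. Naive CD4 T cells from spleen were stimulated for 2 days through the T cell receptor and CD28 with IL-2, then kept for 3 days in IL-2, in both genotypes alike. The labels do not say which promoter drove the deletion, how old the mice were, how many mice each array stands for or at what oxygen level the cultures were kept. Men1, read by 1 probe, had the lower signal in the library labelled KO (459, against 1081 in WT). That probe's place relative to the deleted part is not known here. Bach2, the other gene of the series title, had 4643 in WT and 604 in KO.

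Activated T cells take up glucose and turn much of it into lactate, with the glycolytic enzymes raised by signals that include Myc and the hypoxia-inducible factors (HIFs). A HIF is a pair of an oxygen-regulated alpha chain (Hif1a or Epas1) and a constant beta chain (Arnt). With oxygen present, prolyl hydroxylases of the Egln family mark the alpha chain and Vhl directs it to degradation, so that much of the control acts on the protein and is not read by an RNA array. The pair binds the core letters ACGTG or GCGTG near genes of glucose uptake, glycolysis, mitophagy, collagen hydroxylation and oxygen sensing.

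All values compare 1 array with 1 array. There is no test and no p-value for any of them. A difference is KO minus WT on the log2 scale after each array's signal was divided by its own 75th percentile (644 in WT and 650 in KO), and a fold is the same difference on the linear scale. A gene counts as apart when the difference reaches 2-fold. For bright probes printed at 5 or more spots the pooled SD of the difference over the spots of a probe was 0.0562 (112 probes with a mean signal of 100 or more), and for dimmer ones 0.242 (26 probes). That spread is technical and leaves out mice, cultures, labelling and hybridisation. Added spike-in RNAs, which do not come from the cells, had a median difference of 0.10 (7 probes, range 0.05 to 0.22).

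On the values reported the glycolysis genes were less than 1.5-fold apart, and 2 hypoxia targets were past 2-fold. The glycolysis genes farthest apart were Pdk1 (1.495-fold lower in KO) and Slc16a3 (1.489-fold higher). None of the 22 transporters, enzymes and flux regulators was at least 2-fold apart in either direction. Of the 15 measured genes of oxygen sensing and other hypoxia targets, Ero1a (3.77-fold) and Adm (3.49-fold) were at least 2-fold higher in KO and none was at least 2-fold lower. Over all 13510 named genes described, 10.8% were at least 2-fold higher and 5.14% at least 2-fold lower. The 2 of 15 is thus near the share of all genes and is not a result about the list, and Adm was under 2-fold in both normexp settings given with its values. Among the 7070 of these with a mean level above the 75th percentile these shares were 4.3% and 3.3%. The median difference was 0.09 for the 22 glycolysis genes, 0.17 for the 15 others and -0.01 over all named genes. The median size of a difference, whatever its direction, was 0.16 for the glycolysis genes and 0.36 for the others, beside 0.32 over all named genes and 0.25 over those above the 75th percentile. All 37 members with a probe were well above background on both arrays, so none is a bound.

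**Figure D1:**
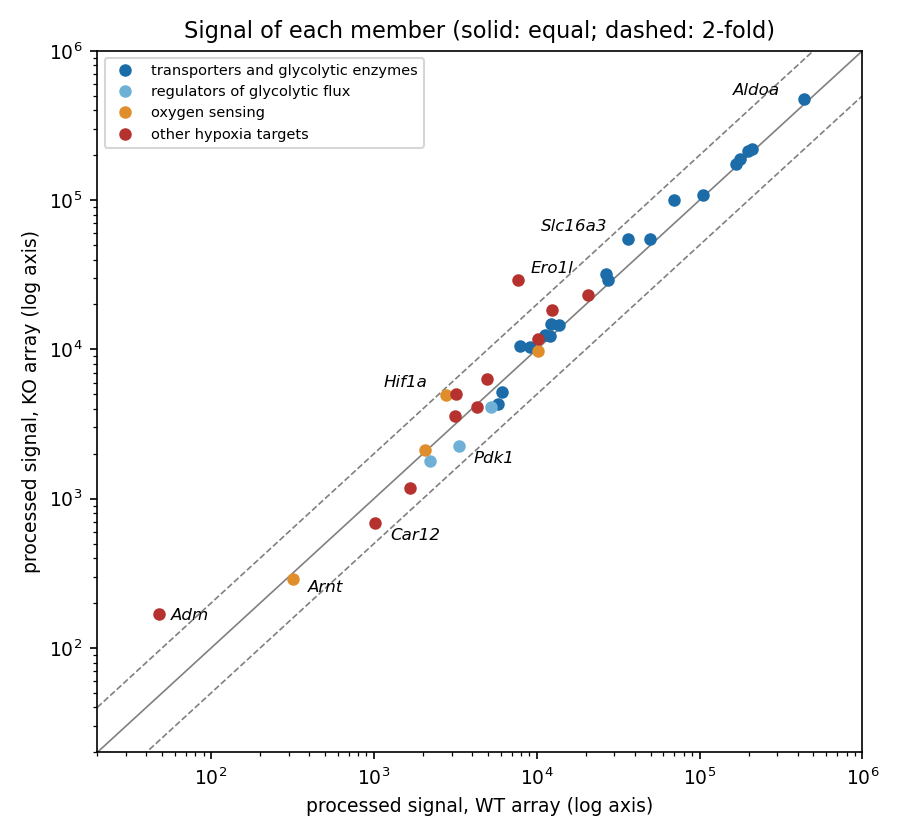
Processed signal of the 37 members with a probe on the WT array (x, log axis) and the KO array (y, log axis), 1 point per gene, coloured by role; the solid line is equality and the dashed lines are 2-fold. Ero1l (now Ero1a) and Adm lie above the upper dashed line, and no member lies below the lower one.

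The promoters of 6 members are shown because they cover both hypoxia targets past 2-fold (Ero1a and Adm), the prolyl 4-hydroxylase pair whose members differed in opposite directions (P4ha1 and P4ha2), and 2 HIF targets that were nearly equal (Ankrd37 and Pgk1). Each line gives the 250 bases before the annotated start, from RefSeq on GRCm38.p6, with the HIF core letters ACGTG and GCGTG of either strand (CACGT and CACGC on the other strand) in capitals. A CACGTG reads on both strands and was counted for each, and overlapping matches were kept.
Ero1a, chr14:45318573-45318822, minus strand: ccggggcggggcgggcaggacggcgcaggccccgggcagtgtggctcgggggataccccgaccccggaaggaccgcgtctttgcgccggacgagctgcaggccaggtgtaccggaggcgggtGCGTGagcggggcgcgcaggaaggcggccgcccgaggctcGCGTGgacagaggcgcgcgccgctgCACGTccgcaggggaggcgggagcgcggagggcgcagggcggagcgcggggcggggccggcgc
Adm, chr7:110627407-110627656, plus strand: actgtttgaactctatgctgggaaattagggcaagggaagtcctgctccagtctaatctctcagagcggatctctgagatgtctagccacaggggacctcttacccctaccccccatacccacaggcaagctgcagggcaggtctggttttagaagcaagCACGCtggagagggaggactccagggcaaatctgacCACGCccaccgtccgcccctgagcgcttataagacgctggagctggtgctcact
P4ha1, chr10:59323046-59323295, plus strand: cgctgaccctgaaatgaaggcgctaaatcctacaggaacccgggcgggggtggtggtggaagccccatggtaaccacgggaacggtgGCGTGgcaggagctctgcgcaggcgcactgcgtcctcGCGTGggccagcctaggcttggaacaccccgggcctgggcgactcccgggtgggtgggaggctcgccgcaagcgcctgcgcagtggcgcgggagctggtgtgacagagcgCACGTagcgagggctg
P4ha2, chr11:54100674-54100923, plus strand: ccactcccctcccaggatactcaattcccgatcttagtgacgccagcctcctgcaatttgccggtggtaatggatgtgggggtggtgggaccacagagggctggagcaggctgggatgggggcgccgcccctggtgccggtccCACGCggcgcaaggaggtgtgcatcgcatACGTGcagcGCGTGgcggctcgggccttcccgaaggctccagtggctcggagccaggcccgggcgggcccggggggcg
Ankrd37, chr8:45999851-46000100, minus strand: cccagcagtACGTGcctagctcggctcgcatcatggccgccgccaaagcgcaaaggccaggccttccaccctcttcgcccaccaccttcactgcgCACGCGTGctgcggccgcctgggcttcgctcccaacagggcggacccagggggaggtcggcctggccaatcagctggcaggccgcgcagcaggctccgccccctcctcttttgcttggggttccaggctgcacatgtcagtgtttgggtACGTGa
Pgk1, chrX:106186850-106187099, plus strand: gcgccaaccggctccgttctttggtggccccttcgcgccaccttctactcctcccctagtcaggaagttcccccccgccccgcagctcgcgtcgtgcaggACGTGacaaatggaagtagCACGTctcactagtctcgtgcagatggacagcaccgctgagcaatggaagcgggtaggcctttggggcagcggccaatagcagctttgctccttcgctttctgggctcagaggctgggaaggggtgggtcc
Ero1a held 3 matches and Adm 2, P4ha1 and P4ha2 held 3 each, Ankrd37 held 4 and Pgk1 2. Promoter sequences were found for 35 of the 38 members, with 50 annotated starts, and 39 of these starts (78.0%) held at least 1 match, against 38.6% of the 32851 starts in the table. Some windows of the same gene overlap, as for Aldoa, Eno1 and Pfkm, so the same letters can count more than once. Starts on 1 chromosome were left out of the 32851. The list was made of glycolysis genes and hypoxia targets, so its share only describes the list. The members' windows were also richer in G and C, with a median of 61.8% against 52.4%. Genes past 2-fold and genes that were nearly equal both held the letters. A match describes the letters and is not a measured binding site.

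Glucose enters T cells through Slc2a1 (GLUT1) and Slc2a3 (GLUT3), and lactate leaves through Slc16a3 (MCT4). The signal of Slc2a1 was 12088 in WT and 12317 in KO (difference 0.01). Slc2a3 had 11186 and 12489, a difference of 0.15. Both glucose transporters were thus within the range of the spike-in probes or below it. Slc16a3 had 36401 in WT and 54684 in KO, 1.49-fold higher in KO, the largest difference among the 19 transporters and enzymes.

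The first steps trap and rearrange glucose. The hexokinases Hk1 and Hk2 had differences of 0.24 (26803 in WT, 31839 in KO) and 0.26 (12295 and 14872). Hk1 was read by 5 probes well above background, whose differences ran from 0.12 to 0.38 and all had the same sign. Gpi1, which turns glucose 6-phosphate into fructose 6-phosphate, was printed at 10 spots. Its signal had a median of 177908 (lowest 170815, highest 181304) in WT and 189758 (lowest 183521, highest 194313) in KO. The spots of the arrays did not overlap, yet the difference of 0.09 ± 0.02 (SD, 10 spots of 1 array pair) was the size of the spike-in difference.

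Phosphofructokinase, which commits glucose carbon to glycolysis, has 3 subunit genes, and they did not differ alike. The liver-type gene Pfkl was 1.33-fold higher in KO (7859 in WT, 10581 in KO) and the muscle-type gene Pfkm 1.35-fold lower (5787 and 4339). The platelet-type gene Pfkp had 13643 and 14678, a difference of 0.09. Relative to Pfkm, Pfkl was thus 1.80-fold higher in KO (log2 0.84, and 0.79 to 0.84 over the processing alternatives).

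Most of the enzymes that split the sugar and carry it to pyruvate were close to equal. Aldoa, the main aldolase, differed by 0.11 (435963 in WT, 475023 in KO) and its relative Aldoc by 0.07. Triosephosphate isomerase Tpi1 differed by 0.01, and Gapdh, often used as a reference gene, by 0.05 (210032 in WT, 218998 in KO). Phosphoglycerate kinase Pgk1, also printed at 10 spots, had a median of 199251 (183940 to 204280) in WT and 212649 (206200 to 224691) in KO, a difference of 0.09 ± 0.05 (SD, 10 spots). The single spots of Pgk1 differed by 0.00 to 0.18. Pgam1, phosphoglycerate mutase, stood out in this run of steps with 69473 in WT and 100054 in KO, 1.43-fold higher in KO. The enolase Eno1 differed by 0.18 and the muscle form Eno3 by -0.24. Pyruvate kinase Pkm differed by 0.13, and lactate dehydrogenase A, Ldha, by 0.06 (166443 and 175650), with 0.04 from its other probe. Gapdh, Pgk1, Ldha, Tpi1, Pgam1, Aldoa and Eno1 have close copies or pseudogenes elsewhere in the genome, and which copies their probes also read is not known here.

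**Figure D2:**
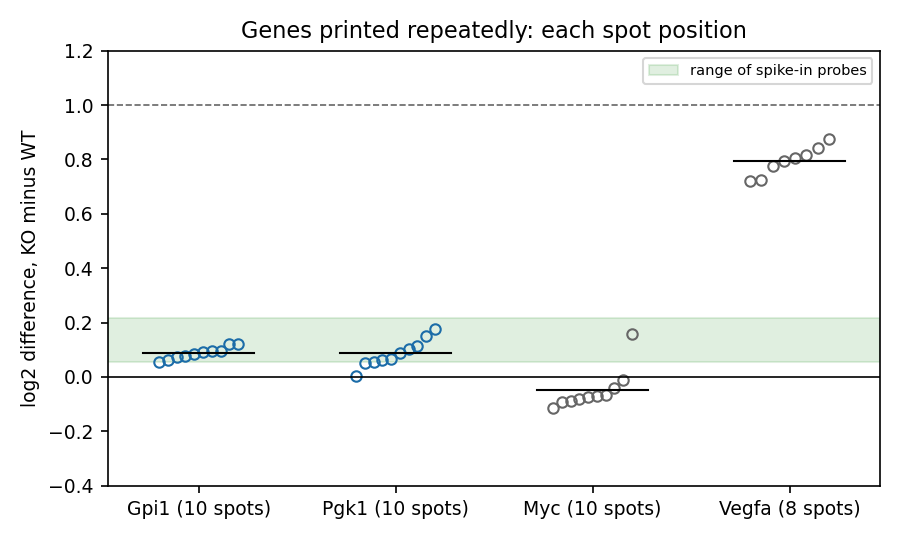
Log2 difference (KO minus WT) at each spot position of 4 genes printed repeatedly on the array; open circles are spots sorted by value, black bars their means, and the green band the range of the spike-in probes. Gpi1 and Pgk1 have means of 0.09, Myc lies around 0, and Vegfa, a hypoxia target outside the member list, lies between 0.72 and 0.87.

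Of the 19 transporters and enzymes, 17 were above 0 in the KO array and 2 (Pfkm and Eno3) below. Over all named genes 49.5% were above 0. This count is of small values and follows the scaling: it was 12 of 19 after centring on the median, where Slc2a1, Aldoc, Tpi1, Gapdh and Ldha were below 0, 15 after quantile normalization and 16 after loess.

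The 3 genes that regulate flux all had lower signals in KO. Differences below 0 were common: 6822 of the 13510 named genes had one, and 3841 of the 7070 above the 75th percentile. The 3 of 3 thus only describes these genes. Pfkfb3 makes fructose 2,6-bisphosphate, the activator of phosphofructokinase, and had 5219 in WT and 4089 in KO, 1.29-fold lower. Its 3 probes gave differences from -0.81 to -0.25, both extremes on signals under 100. Pfkfb4, a related enzyme, had 2217 and 1796, 1.25-fold lower. Pdk1 is the kinase that blocks pyruvate dehydrogenase and so keeps pyruvate out of the mitochondrion. It had 3346 in WT and 2258 in KO, and both its probes gave a difference of -0.58. None reached 2-fold, and all 3 were below 0 under each processing alternative.

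In the oxygen-sensing group Hif1a was the gene that differed most. It had 2787 in WT and 4924 in KO, 1.75-fold higher in KO (difference 0.81), and was read by 1 probe. Its difference ran from 0.73 to 0.99 over the alternatives, so it did not reach 2-fold under any of them. Its partner Arnt had 320 in WT and 289 in KO (difference -0.16), and its other, dimmer probe gave 0.04. The prolyl hydroxylase Egln1 (PHD2) had 2052 and 2114 (difference 0.03). Egln3 (PHD3), itself a well-known HIF target, had 10233 and 9741 (difference -0.08). The hydroxylase genes were thus close to equal, while the alpha chain gene was not.

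Ero1a encodes the oxidase that drives disulfide bond formation in the endoplasmic reticulum, and hypoxia is one of several stimuli known to raise it. Its brighter probe had 7691 in WT and 29282 in KO, 3.77-fold higher in KO (difference 1.92). The other probe gave 828 and 2835, a difference of 1.76. The difference was between 1.84 and 2.26 over the processing alternatives.

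Adm encodes adrenomedullin, a secreted vasodilator peptide. It had 47.8 in WT and 168 in KO, 3.49-fold higher in KO (difference 1.80), from 1 probe whose signal was under 100 in WT only. After normexp background correction the difference was 0.12, and 0.90 with 6 aberrant local backgrounds of the WT array replaced, so Adm was under 2-fold in both.

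The mitophagy receptors Bnip3 and Bnip3l (NIX) were higher in KO by less than 2-fold. Bnip3 had 12398 in WT and 18282 in KO, 1.46-fold higher. Bnip3l had 4918 and 6373, 1.28-fold higher, with 0.47 from its other probe beside 0.36. The collagen prolyl 4-hydroxylase alpha subunits went in opposite directions. P4ha1 was 1.42-fold lower in KO (1666 in WT, 1181 in KO, with -0.47 from its other probe beside -0.51). P4ha2 was 1.56-fold higher (3173 and 4999). Relative to P4ha1, P4ha2 was thus 2.22-fold higher in KO (log2 1.15, and 1.08 to 1.15 over the alternatives), although neither gene alone reached 2-fold.

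The remaining hypoxia targets were close to equal, apart from Car12. Ankrd37, an ankyrin repeat gene and one of the standard HIF reporters, had 4274 in WT and 4091 in KO (difference -0.08). Kdm3a, a histone H3 lysine 9 demethylase, differed by 0.17 (3151 and 3566). Ndrg1, a stress-responsive gene, differed by 0.21 (10118 and 11779), and Higd1a, a mitochondrial inner membrane protein, by 0.17 (20497 and 23277). Car12, a cell-surface carbonic anhydrase, was lower in KO (1021 and 687, difference -0.58), read by 1 probe while its other probe stayed at background on both. With a size rule of 1.5-fold, Hif1a, P4ha2, Ero1a and Adm counted as higher in KO, and no member counted as lower. The background for that rule was 17.3% of all named genes higher and 12.7% lower. Just under it were Car12 (1.4987-fold lower), Pdk1 (1.495-fold lower) and Slc16a3 (1.489-fold higher). Car12 (-0.66) and Pdk1 (-0.66) passed it after median centring, and Slc16a3 (0.81) after normexp as given. The counts under this rule thus follow the scaling.

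**Figure D3:**
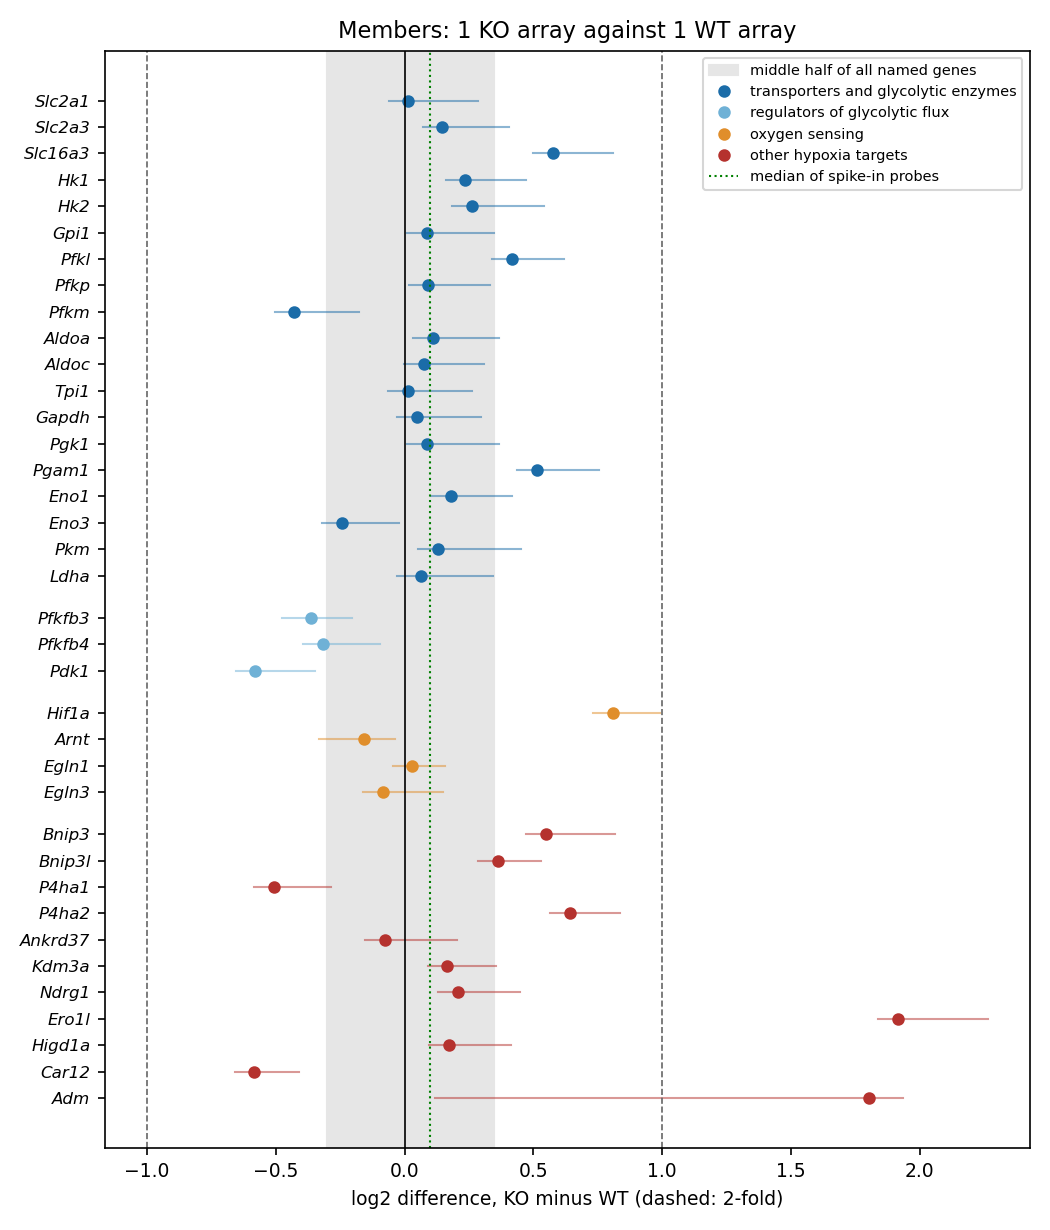
Log2 difference (KO minus WT, x) of each of the 37 members with a probe, grouped and coloured by role; points are the values reported, thin lines the range over the processing alternatives, the grey band the middle 50% of all named genes, the green dotted line the spike-in median and the dashed lines 2-fold. Most glycolytic enzymes lie between 0 and 0.3, Ero1l (now Ero1a) lies beyond 2-fold over its whole range, and the range of Adm reaches down to 0.12.

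Where a member had several probes well above background on both arrays (15 genes), they gave differences of the same sign in 14, the exception being Arnt. The median gap between the highest and the lowest probe was 0.05, and the widest was 0.56, for Pfkfb3.

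**Figure D4:**
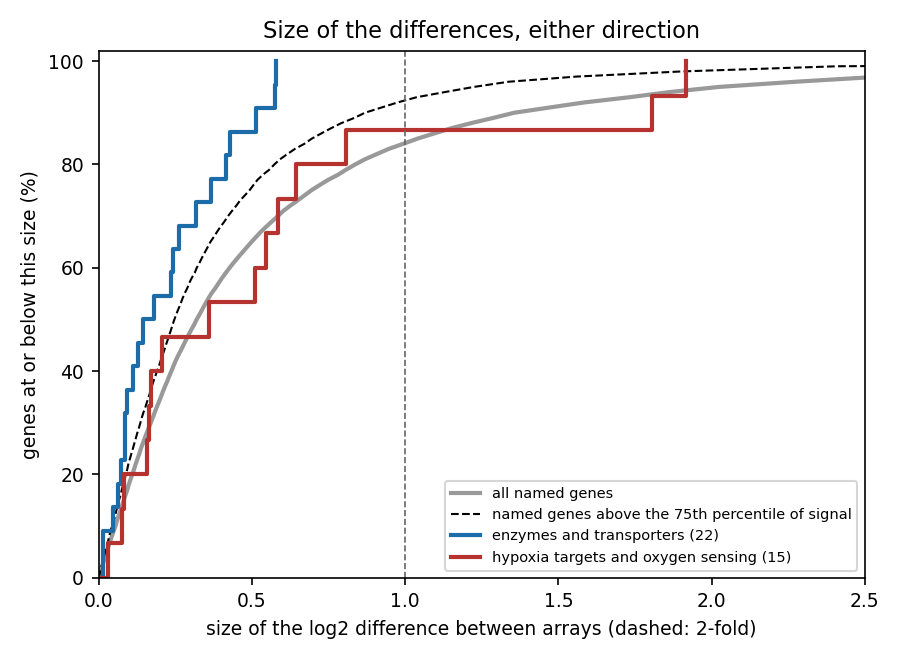
Cumulative share of genes (y, percent) whose log2 difference is at most a given size in either direction (x), for the 22 glycolysis genes, the 15 hypoxia and oxygen-sensing genes, all named genes and named genes above the 75th percentile of signal; the dashed line is 2-fold. All glycolysis genes lie below a size of 0.6, while the hypoxia curve runs near that of all named genes and has its last steps at 1.80 and 1.92.

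Other genes of the pathways were read from 4 lists of 76 genes in all, of which 64 could be described. Of these, 8 reached 2-fold higher in KO and 1 lower, while 52 lay between and 3 had bounds under 2-fold, and the median was 0.18. As for the members, the counts stand beside 10.8% higher and 5.14% lower over all named genes.

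Among other isoforms of the glycolysis genes, beside 10.8% higher and 5.14% lower over all named genes, 1 of 19 was at least 2-fold apart. This was Slc2a6 (GLUT6), a sugar transporter of lysosomal membranes, with 717 in WT and 1752 in KO, 2.42-fold higher. Ldhb, the lactate dehydrogenase subunit favoured in oxidative tissue, had 6212 and 3247, 1.93-fold lower in KO. Relative to Ldhb, Ldha was thus 2.02-fold higher in KO (log2 1.01, and 0.91 to 1.01 over the alternatives). The other lactate transporter, Slc16a1 (MCT1), differed by 0.04. Another pyruvate dehydrogenase kinase, Pdk3, differed by 0.05, with 0.38 from its other probe (1424 in WT, 1865 in KO). The next largest values were those of Hkdc1, a hexokinase relative (well above background in KO only, at least 1.72-fold higher), and Pgam2, the muscle phosphoglycerate mutase (difference 0.78 on signals of 36.5 and 63.2, with KO the lower array after normexp).

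None of 9 pentose phosphate pathway genes was 2-fold apart, and their median was 0.10. The largest differences were those of Prps1 (-0.47) and Prps2 (-0.45), which make the nucleotide precursor PRPP, of G6pdx, the entry enzyme (0.36, 8252 in WT and 10660 in KO), and of Rpe (0.21).

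Among 15 other genes of oxygen sensing and HIF partners, 2 were at least 2-fold higher in KO and 1 lower. Over all named genes these shares were 10.8% and 5.14%. Epas1, encoding HIF-2 alpha, had 776 in WT and 19950 in KO, a difference of 4.67 (3.30 as the mean over its probes). Its other, dim probe had 8.38 in WT, not well above background, and 32.0 in KO. Beside the 0.81 of Hif1a, the alpha chain genes thus differed in the same direction and by very different amounts. Arnt2, a relative of Arnt, was at least 2.38-fold higher in KO (well above background in KO only, signal 33.7), and this bound was under 2-fold, at 0.33, after normexp with the aberrant backgrounds replaced. Crebbp, a histone acetyltransferase and HIF coactivator, had 119 and 53.6, 2.25-fold lower, but was under 2-fold, at -0.76, in that same setting. Mxi1, a Myc antagonist, came next (difference -0.50). The HIF hydroxylase genes Egln2 and Hif1an differed by -0.08 and -0.30, the probes of Hif1an ranging from -0.73 to 0.55. Myc, a main driver of glycolytic genes in activated T cells, was printed at 10 spots, whose median was 9053 in WT and 8717 in KO, with a difference of -0.05 ± 0.08 (SD, 10 spots).

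The list of other hypoxia targets had the highest median of the 4, 0.57 over 21 genes, beside -0.01 over all named genes. Of the 21, 5 were at least 2-fold higher in KO, none was lower and 16 lay between. Over all named genes 10.8% were higher and 5.14% lower. The lists were chosen with earlier results of these data known, so this median and its rank are descriptions only. Hmox1, haem oxygenase, had 961 in WT and 3592 in KO (3.71-fold higher). Selenbp1, a selenium-binding protein, had 9315 and 30732 (3.27-fold). Stc2, the secreted glycoprotein stanniocalcin, had 569 and 1697 (2.95-fold). The transcriptional repressor Bhlhe40 had 2893 and 7829 (2.68-fold), and the collagen lysyl hydroxylase Plod1 had 101 and 261 (2.56-fold, but with differences of 0.39 and 0.91 in the normexp settings as given and with replaced backgrounds). These 5 genes also answer to stimuli other than hypoxia. Vegfa, the angiogenic growth factor, was 1.73-fold higher, with its 8 usable spots between 938 and 997 in WT and between 1605 and 1755 in KO. Ddit4, an inhibitor of mTORC1 signalling, was 1.69-fold higher (72431 and 123464). Others lay near or below 0, such as Mif (-0.04), Ak4 (0.08), Ccng2 (-0.43), Nampt (-0.56) and Zfp292 (-0.71, the lowest of the list).

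**Figure D5:**
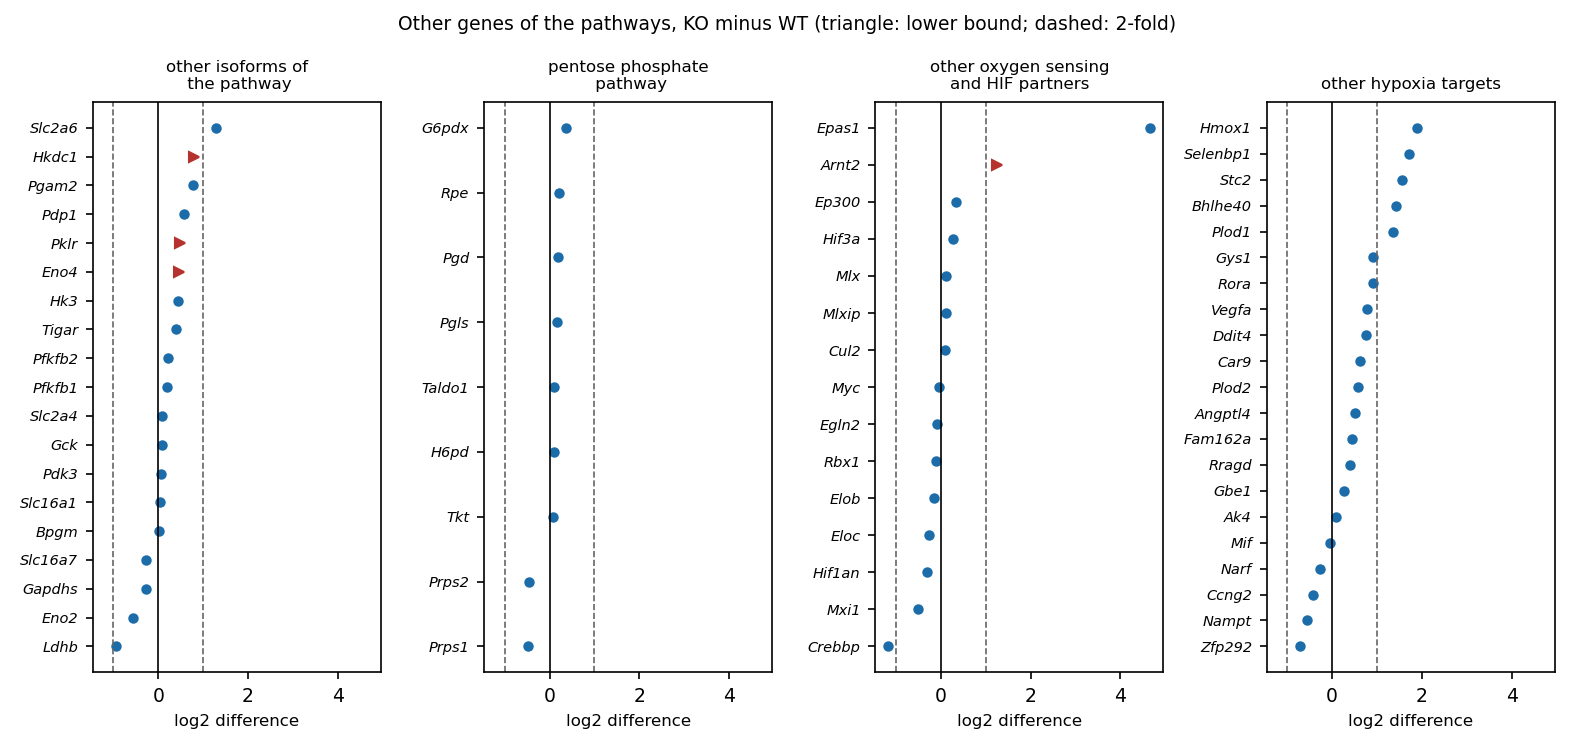
Log2 difference (KO minus WT, x) of the 64 described genes of the 4 further lists, 1 panel per list, sorted by value; circles were well above background on both arrays, red triangles in KO only, where the value is a lower bound, and dashed lines mark 2-fold. Epas1 lies farthest out at 4.67, the pentose phosphate genes lie between -0.47 and 0.36, and 5 hypoxia targets lie beyond 2-fold.

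Many markers of other cell types were higher in the KO array. Of 33 described markers of CD8 T cells, natural killer cells, macrophages, mast cells, B cells, neutrophils, red cells and dendritic cells, 15 reached 2-fold higher in KO and 1 lower, while 13 lay between and 4 had bounds under 2-fold, beside 10.8% higher and 5.14% lower over all named genes. Summed over the 42 markers with a probe, also those not well above background, the signal was 5479 in WT and 17135 in KO. The 15 higher ones were Cd8a, Klrb1c, Fcer1g, Tyrobp, Klrc1, Cd14, Adgre1, Fcgr3, Cpa3, Mcpt8, Fcer1a, Ms4a1, Hbb-bt, Hba-a1 and Itgax, and the lower one was Eomes. Of the higher ones, Adgre1, Fcgr3 and Mcpt8 were bounds, well above background in KO only. Klrc1, Cd14, Cpa3, Fcer1a, Hbb-bt and Itgax had WT signals under 100. Values after normexp, which moved dim genes such as Adm and Plod1, are not given for the markers. For macrophages and monocytes, which can express Adm and Hmox1, 3 of 7 were at least 2-fold higher, with C1qa not well above background (sum over the 8 with a probe 373 in WT and 693 in KO). The other 4 were not higher by 2-fold: Csf1r had 27.3 in WT and 21.0 in KO, Mpeg1 differed by -0.64, C1qb had 96.0 and 97.1, and Lyz2 was well above background in WT only (19.5, at least 1.90-fold lower in KO). For red cells, which use Bnip3l, 2 of 3 were higher, and Alas2 was not well above background. The sum over the 4 with a probe was 214 in WT and 579 in KO. Hbb-bt was counted by its brightest probe, and its 3 probes well above background on both arrays ran from -0.002 to 1.51. Ms4a2, Pax5, S100a8, S100a9, Csf3r, Elane and Siglech were not well above background either. Of 7 described CD4 T cell markers 6 lay between the 2-fold limits and Cd5 was lower, and Cd4 itself had 443 in WT and 279 in KO. The part of other cells in the differences of Adm, Hmox1, Ero1a and Epas1 was not tested. In such bulk samples, fewer cells of a type and less RNA per cell cannot be told apart.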

How the data were processed

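Per the file headers, both arrays were Agilent mouse arrays read with Feature Extraction 10.7.3.1, with probe annotation on mm9. The intensity used is the processed signal the authors deposited, background-subtracted and linear per the file headers, and not scaled between arrays. The authors' deposited value table is on the log2 scale. It matched the log2 scanner signals less 1 constant per array within 0.01 for 99.7% of probes, which gives its scale and direction. Its medians were -3.97 for WT and -3.90 for KO.

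Outlier spots were left out (115 in WT, 103 in KO), and no spot was saturated. Each array was centred on the 75th percentile of its log2 signals, and a probe's spots were averaged. Accessions were named through a RefSeq table of GRCm38.p6: 27043 of 41164 probes matched 1 symbol and 14121 matched none, with no probe matching more. A gene took its brightest probe well above background on at least 1 array. With 1 such array the difference is a bound: the distance from the bright value to the dim one, or to that array's lowest level well above background where that is higher. With 1 array per group there was no test. The number of arrays limits the precision.

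All members are reported, and 1 cell type marker is not reported here. Of each further list, genes at least 2-fold apart and the 4 largest differences are named. Slc16a1, Pdk3, Egln2, Hif1an, Myc, Vegfa, Ddit4, Mif, Ak4, Ccng2, Nampt, Zfp292 and the ratios between forms of an enzyme were chosen after their values were seen. The members and lists were chosen with earlier results of these data known. Alternatives were median centring, quantile normalization, loess (statsmodels 0.14.6, span 0.3), normexp (limma 3.58.1, offset 50, on median spot signals), the authors' table, the mean over probes, 2 filters, kept outlier spots and a 1.5-fold rule. Normexp with local backgrounds over 200 replaced was added after the data were seen. The procedure was tested on simulated data, with probes well above background on both arrays only. Bounds and normexp were not covered, and no planted shift lay at the 2-fold limit.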

Additional observations from a re-analysis of the deposited data

How the results depend on the processing

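Of the 37 members measured, all stayed on the same side of 2-fold under 8 of 10 processing alternatives, and 36 did under normexp and under normexp with replaced backgrounds, where Adm was below 2-fold. None of the 22 glycolysis genes reached 2-fold under any of these, and on the values reported none reached 1.5-fold. Their median of 0.09 was 0.35 after normexp as given, and that of the hypoxia and oxygen-sensing genes, 0.17, was 0.36. The median shift of the 37 members was 0.24 in that setting and 0.02 with backgrounds replaced. Bright genes moved too, with Gpi1 going from 0.09 to 0.35 and Slc2a1 from 0.01 to 0.29 after normexp as given. The count of hypoxia genes higher in KO, 2, was 1 after normexp as given, 1 with backgrounds replaced and 4 with the 1.5-fold rule. Of the further lists, the 8 higher genes were 15 with the 1.5-fold rule, 11 after loess, 11 with no filter on dim probes, 7 after normexp and 6 with backgrounds replaced. The 1 lower gene became 2 after median centring, 2 with no filter on dim probes, 4 after normexp, 0 with backgrounds replaced and 3 with the 1.5-fold rule. After normexp Arnt2, Hkdc1, Eno4 and Pklr had no usable bound. No member at least 2-fold apart changed sign. Local backgrounds over 200 occurred at 6 spots, all of them on the WT array. The causes of the shifts between settings were not tested. Signal over background limits Adm, whose WT signal was 47.8. No paired analysis was possible because each group had 1 array.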
